A study of Mus musculus with 4 samples.

Results

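Moving cargo between the membranes of a cell takes several protein families, and 85 of their genes were followed here as mouse dendritic cells differentiated in culture. They are the genes of the platform annotation whose symbols begin with Rab, Arf, Arl, Vamp, Stx, Snap or Snx and a number, or with Stxbp, out of 8220 genes measured. The rule picks genes by symbol and uses no measured value, although it was written with earlier results of these data known. By role they comprised 32 Rab GTPases, 9 Arf or Arl GTPases, 20 SNAREs, 2 Stxbp regulators of SNAREs, 14 sorting nexins, 6 partner proteins and 2 transcripts. The partner proteins (Rab11fip5, Rab3il1, Rab3ip, Arl14ep, Arl2bp and Snap91) bind or act beside these families. The transcripts, Rab10os and Rab26os, carry the name of an opposite-strand neighbour and encode no GTPase.

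The study put total RNA on 4 arrays, 1 for each stage of a culture that starts from bone marrow. The stages were dendritic cell progenitors, amplified in vitro per the labels, cells differentiated for 7 days, cells differentiated for 10 days, and cells at 10 days that had also received tumour necrosis factor (TNF) alpha for 16 hours. The labels name no mutation and no other agent for any group; no strain, sex, age or number of pooled mice or cultures is stated in them. With 1 array a group there is no replicate spread, no test and no p-value, so each difference below is one between 2 arrays.

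Rab and Arf proteins are small GTPases that recruit coats, motors and tethers to a membrane when bound to GTP. SNAREs then fuse the vesicle with its target: a Vamp on the vesicle zips up with a syntaxin (Stx) and a Snap protein on the target, guided by Stxbp proteins. Sorting nexins bind endosomal lipids and send receptors back to the Golgi or the surface. In dendritic cells this traffic carries antigen to degradative compartments, MHC molecules to the surface and cytokines out of the cell.

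Levels are intensities scaled to a common 75th percentile and are given in units; a level of one gene is not comparable with that of another, because each is read by its own probes. Values under 428 units, the 60th percentile of all values, have no reliable order. A fold against such a value is therefore written as at least so many fold, computed against 428 units, and no fold is given where both arrays lie under it. Counts of higher and lower genes use a difference of at least 2-fold, a log2 ratio of 1. As a measure of disagreement between probes, the log2 ratios of the 2 brightest probe sets of a gene were compared where both lay above 428 units. Both read the same RNA on the same arrays, so this holds no spread between arrays, cultures or animals. Their difference had an SD of 0.62 between day 7 and progenitor over 373 genes, 0.71 between day 10 and day 7 over 370, 0.81 between day 10 and progenitor over 343, and 0.56 between TNF and day 10 over 369.

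The dendritic cell label was checked against its markers. All 10 dendritic cell markers, among them Itgax and H2-Ab1, lay above 428 units on each of the 3 later arrays, against 2 of 10 in progenitors. Their summed level was 4895 units in progenitors, 92607 at day 7, 350468 at day 10 and 371474 with TNF. In this sum and those below, values below 0 counted as 0. Such sums lean on the genes with the brightest probes: at day 10 Cd74 had 107887 units and H2-Aa 100111, against 1042 for Cd86. Of 6 progenitor markers 5 lay above 428 units in progenitors and at day 7, and 2 at day 10 and with TNF; 4 were at least 2-fold lower at day 7 than in progenitors. Kit went the other way, with 647, 1308, 1362 and 1624 units in order of stage, and Cd34 lay under 428 units on every array. Granulocyte markers summed to 212706 units in progenitors, 122063 at day 7, 142969 at day 10 and 17398 with TNF. They did not move as one. Between day 7 and progenitor, 1 of 10 was at least 2-fold higher and 4 were lower. The 4 were Elane, Prtn3, Ctsg and Mpo, of which Mpo is also in the progenitor list. Between day 10 and progenitor, 2 of 10 were at least 2-fold higher and 5 lower. Between TNF and day 10, 0 of 8 were higher and 6 lower. Macrophage markers summed to 10344, 62433, 136244 and 94176 units in the same order. Between day 10 and progenitor, 6 of 8 were higher and 1 lower. The lower one was C1qc, with 1679, -230, -20 and 67 units in order of stage. Within the macrophage sum at day 10, Mmp12 (61180 units) and Cd68 (44389 units) weighed most. Markers of neural tissue, listed because several SNAREs are known from synapses, summed to between 1683 and 2556 units. Most of that sum was Mbp, a gene of myelin, with 1198, 1207, 1724 and 1989 units in order of stage. The other 7 of 8 lay under 428 units on all arrays. Total RNA of a whole culture cannot separate fewer cells of a type from less RNA per cell.

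The sequences in front of 5 genes are shown because their transcripts carry the results below: Stx3, Snap23 and Stx6 are SNAREs higher at day 7, Stxbp3 was higher at each later stage, and Rab8b was at least 2-fold higher with TNF. Each is the 250 bases before the RefSeq transcription start in build GRCm38.p6, 5′ to 3′ on the gene's strand. They lie at chr19:11819404-11819653 (minus strand) for Stx3, chr2:120567421-120567670 (plus) for Snap23, chr1:155158453-155158702 (plus) for Stx6, chr3:108840503-108840752 (minus) for Stxbp3 and chr9:66919706-66919955 (minus) for Rab8b. Capitals mark a match, on either strand, to any of 8 motifs: the E-box CACGTG, the AP-1 site TGANTCA, the PU.1 site GAGGAAGT, the GC box GGGCGG, the CCAAT box CCAAT, the TATA box TATAAA, and, by name alone, the NF-kB site and the interferon response element.
Stx3: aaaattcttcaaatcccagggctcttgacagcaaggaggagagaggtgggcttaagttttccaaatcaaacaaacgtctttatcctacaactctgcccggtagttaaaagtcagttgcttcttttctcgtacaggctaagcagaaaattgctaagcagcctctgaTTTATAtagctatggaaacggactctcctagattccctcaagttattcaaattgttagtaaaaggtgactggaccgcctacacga
Snap23: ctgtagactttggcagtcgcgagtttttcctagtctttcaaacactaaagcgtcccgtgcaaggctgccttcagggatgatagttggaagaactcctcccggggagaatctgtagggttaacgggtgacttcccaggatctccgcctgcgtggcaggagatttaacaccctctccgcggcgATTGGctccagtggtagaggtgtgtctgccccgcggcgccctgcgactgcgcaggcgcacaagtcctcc
Stx6: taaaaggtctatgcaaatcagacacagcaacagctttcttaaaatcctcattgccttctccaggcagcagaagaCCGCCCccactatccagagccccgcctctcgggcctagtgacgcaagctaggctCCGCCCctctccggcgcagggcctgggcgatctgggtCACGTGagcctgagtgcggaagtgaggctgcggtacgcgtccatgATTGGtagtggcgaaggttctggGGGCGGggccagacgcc
Stxbp3: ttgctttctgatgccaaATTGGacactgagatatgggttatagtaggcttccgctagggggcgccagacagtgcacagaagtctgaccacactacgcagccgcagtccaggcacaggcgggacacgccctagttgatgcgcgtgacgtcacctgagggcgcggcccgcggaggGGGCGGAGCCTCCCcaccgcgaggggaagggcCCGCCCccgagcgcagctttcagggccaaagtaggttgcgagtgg
Rab8b: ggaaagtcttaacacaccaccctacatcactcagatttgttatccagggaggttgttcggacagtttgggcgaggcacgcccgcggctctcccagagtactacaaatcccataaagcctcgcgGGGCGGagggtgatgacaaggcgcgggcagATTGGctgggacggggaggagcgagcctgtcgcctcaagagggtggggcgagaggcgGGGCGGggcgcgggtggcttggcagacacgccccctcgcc
The windows differ. That of Stx3 held 1 match, to the TATA box, and that of Snap23 held 1, to the CCAAT box. Stx6 had 5 matches, among them 3 GC boxes and 1 E-box, and Rab8b had 3, of which 2 were GC boxes. In Stxbp3 an NF-kB site overlapped 1 of its 2 GC boxes.

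Promoter windows were found for 74 of the 85 members, and for 13 of these with several starts the first listed was read. An E-box lay in 12 of 74 windows (16.2%), against 6.05% of 27025 genes. Those 27025 are all genes with a RefSeq promoter window and were not limited to the 8220 genes measured, from which the members come. The GC box lay in 52 members (70.3%) and in 32.9% of all genes, and the CCAAT box in 35 (47.3%) and 34.5%. The NF-kB site lay in 6 (8.11%) and 7.01%, the TATA box in 4 (5.41%) and 13.0%, the AP-1 site in 2 (2.7%) and 6.87%, the interferon element in 2 (2.7%) and 3.04%, and the PU.1 site in 1 (1.35%) and 2.44%. Base composition was not matched, and these matches describe letters, not binding.

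Most members were measurable. On at least 1 array 65 of 85 lay above 428 units, 76.5% against 57.6% of all genes. On all 4 arrays 50 did so, 58.8% against 38.2% of all genes. The count was 53 in progenitors, 57 at day 7, 61 at day 10 and 60 with TNF. Over all 8220 genes it was 3888, 3991, 3964 and 3978 in the same order. The 20 members under 428 units throughout were the Rab genes Rab4a, Rab17, Rab23, Rab25, Rab33a, Rab34 and Rab35, the GTPases Arf2, Arf4 and Arl3, and the partners Rab3ip and Snap91, with the SNAREs Snap25, Stx1a, Stx7, Stx12, Stx18 and Vamp7 and the sorting nexins Snx3 and Snx9. Among them Snap25 and Stx1a, which fuse synaptic vesicles in neurons, did not exceed 42 units on any array. For these 20 genes nothing can be said about change. Early versions of Affymetrix mouse arrays are known to include probe sets made in the wrong orientation, and no probe set was masked here, so a value under 428 units does not show that a transcript was absent. For the same reason a value above 428 units may not read the named transcript, which matters most for genes with 1 probe set.

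**Figure D1:**
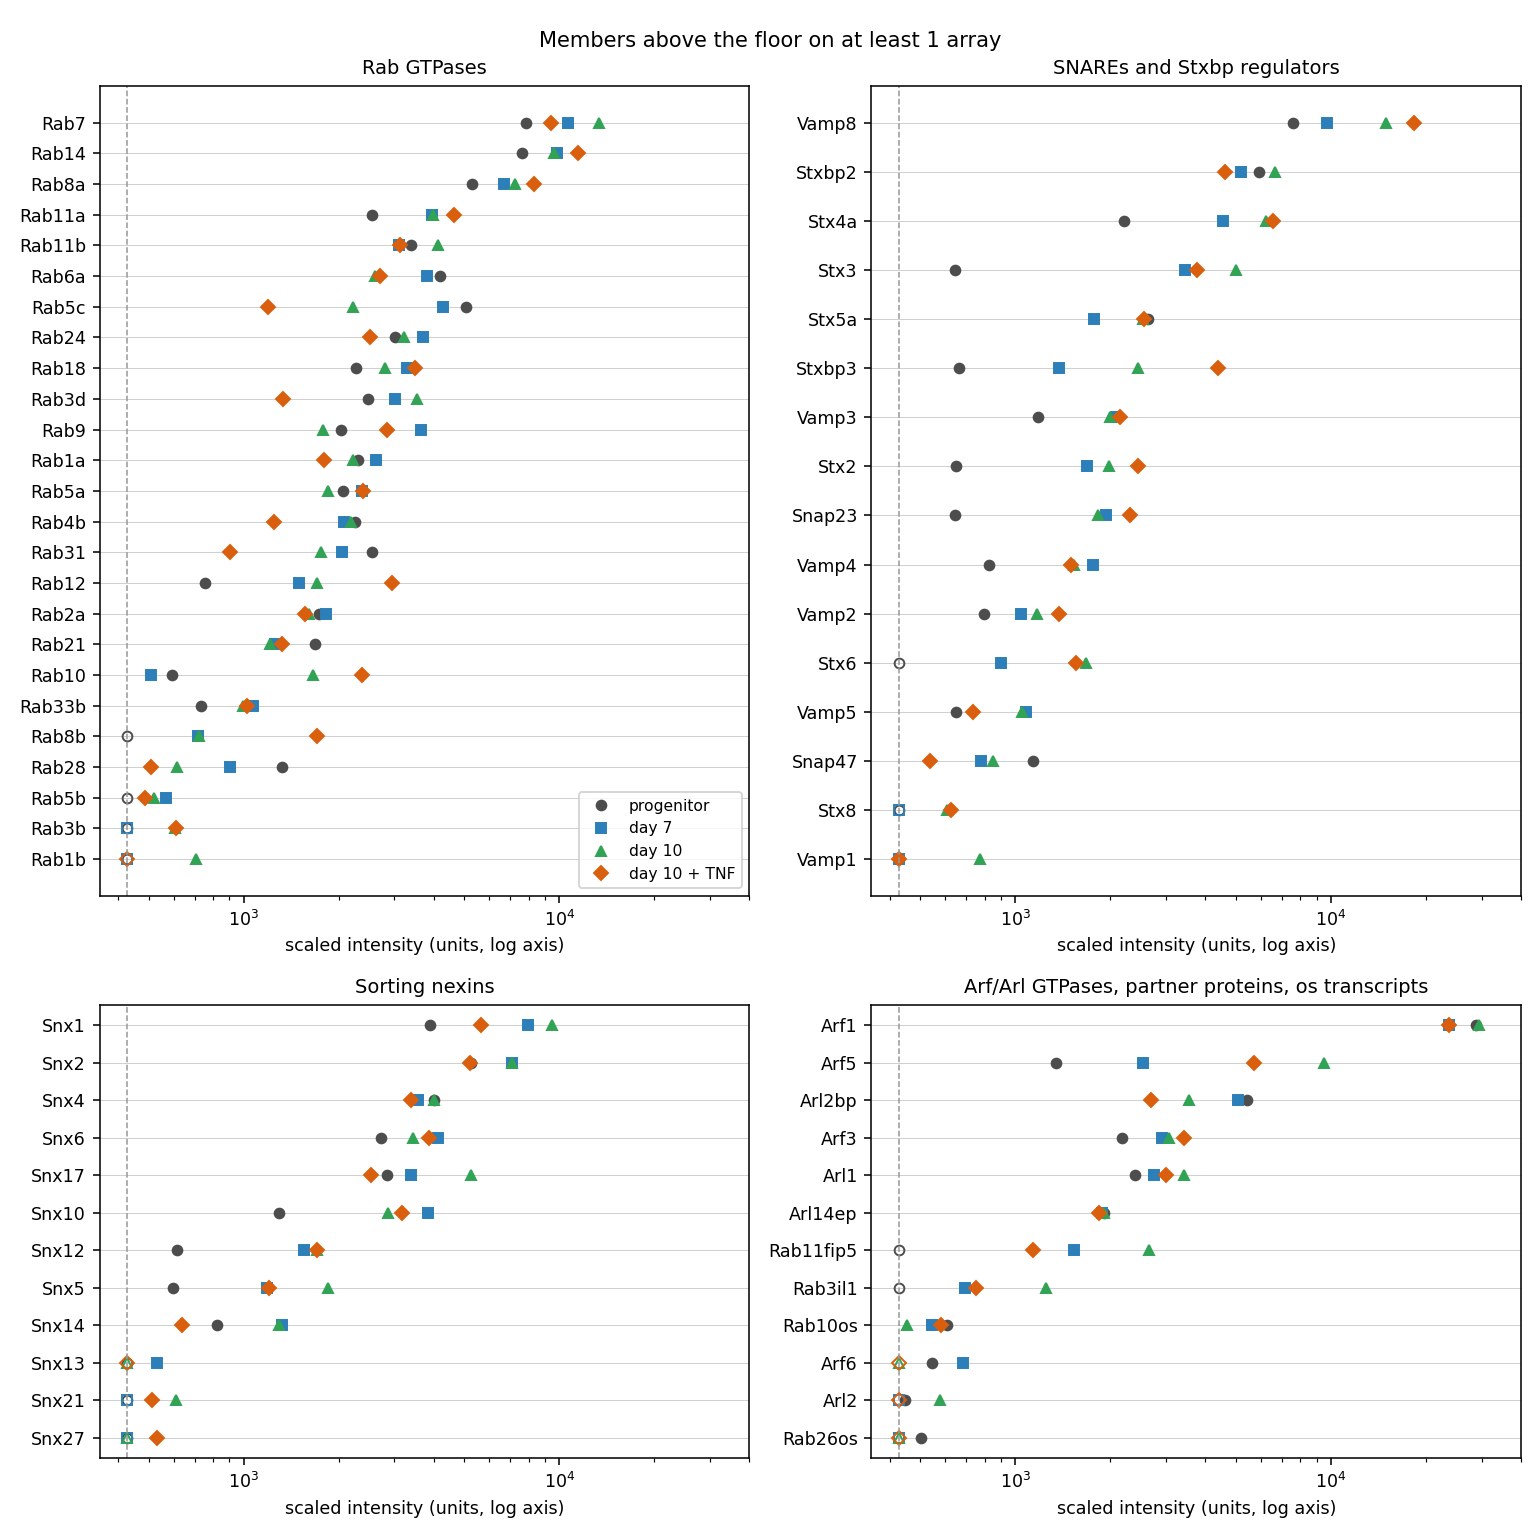
Scaled intensity (units, log axis) of the 65 members that exceed 428 units on any array, by family, with 1 point for each of the 4 arrays. Open symbols at the dashed line stand for values at or under 428 units; Stx3, Snap23, Stx2 and Stx6 have their progenitor point well to the left of the other 3.

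The first comparison asks which of these genes separate cells at day 7 from progenitors. Of 59 members measured above 428 units in progenitors or at day 7, 11 were at least 2-fold higher at day 7 and 0 were lower. Over all 4311 genes so measured, 10.5% were higher and 9.72% lower. The 11 genes were 18.6% of the members. The median log2 ratio of the members was 0.37, against -0.07 for all genes, and 41 of 59 members (69.5%) had a ratio above 0, against 46.6% of all genes. The higher genes were SNAREs and sorting nexins: 6 of 12 SNAREs, 3 of 10 sorting nexins, Stxbp3 and Rab11fip5, against 0 of 23 Rab and 0 of 6 Arf or Arl GTPases. These counts have no test. On the same arrays dendritic cell markers summed to 92607 units at day 7, against 4895 in progenitors, and macrophage markers to 62433, against 10344. Granulocyte markers summed to 122063, against 212706, with 1 of 10 at least 2-fold higher, 4 lower and 5 neither. The part of these cell types in the counts was not tested.

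Stx3, a syntaxin that receives vesicles at the surface, had 646 units in progenitors, 3447 at day 7, 5015 at day 10 and 3752 with TNF. The progenitor array was the low one, and day 7 was 5.34-fold above it, a log2 ratio of 2.42. A second Stx3 probe set read 74, 462, 1157 and 869 units in the same order, which gave a log2 ratio of 0.11 between day 7 and progenitor because both values lie near or under 428 units. It had the same high array, day 10. The median over both was 1.26.

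Snap23, the widely expressed relative of neuronal Snap25 and the partner of surface syntaxins, had 644, 1943, 1830 and 2304 units in progenitors, at day 7, at day 10 and with TNF. Day 7 was 3.02-fold above progenitors, and the 3 later arrays lay close together. Stx2, another surface syntaxin, had 649, 1690, 1980 and 2438 units in the same order (2.60-fold at day 7), and Stx4a, which pairs with Snap23 at the plasma membrane, had 2207, 4543, 6207 and 6525 units (2.06-fold). All 3 were lowest in progenitors and highest with TNF.

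Stxbp3 encodes the Munc18 protein that holds syntaxin 4. It had 661 units in progenitors, 1375 at day 7, 2442 at day 10 and 4370 with TNF, higher at every stage than at the one before. The ratios were 2.08-fold for day 7 over progenitor, 1.78-fold for day 10 over day 7 and 1.79-fold for TNF over day 10. Its relative Stxbp2, which serves granule release in blood cells, had 5907, 5176, 6622 and 4621 units in the same order. A dimmer Stxbp2 probe set had 1033, 1291, 2467 and 2329 units, with a log2 ratio of 1.26 for day 10 over progenitor, against 0.16 for the brighter one. The probe sets of Stxbp2 thus disagree on whether it was higher at day 10. The dimmer one carries a name that denotes probes shared by a gene family, so it may not read Stxbp2 alone.

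SNAREs of the Golgi and endosomes included genes that were higher as well. Stx6, a syntaxin of the trans-Golgi network, had 243, 902, 1677 and 1551 units on the progenitor, day 7, day 10 and TNF arrays, at least 2.11-fold higher at day 7 and at least 3.92-fold at day 10 than in progenitors. Vamp4, its vesicle partner there, had 824, 1759, 1532 and 1505 units in the same order, 2.13-fold higher at day 7. A dimmer Vamp4 probe set stayed between 325 and 503 units, under 428 on both arrays of this comparison.

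The remaining vesicle SNAREs were closer to their progenitor level. Vamp3, found on recycling endosomes, had 1183, 2084, 1990 and 2151 units in progenitors, at day 7, at day 10 and with TNF, 1.76-fold higher at day 7. Vamp5 had 648, 1082, 1047 and 736 units and Vamp2 797, 1040, 1170 and 1379 units in the same order, 1.67-fold and 1.30-fold higher at day 7. Vamp8, a SNARE of late endosomes and secretory granules, had 7550, 9712, 14939 and 18320 units, lowest in progenitors and highest with TNF. It was 1.29-fold higher at day 7 than in progenitors and 1.98-fold higher at day 10, and its second probe set gave log2 ratios of 0.10 and 0.88 for the same comparisons. Both Vamp8 probe sets carry names that denote probes shared by a gene family.

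Only 2 of the 12 SNAREs measured at day 7 or in progenitors had a ratio under 0. Stx5a, the syntaxin of traffic from the endoplasmic reticulum to the Golgi, had 2622, 1771, 2529 and 2562 units in progenitors, at day 7, at day 10 and with TNF, 1.48-fold lower at day 7. Snap47 had 1140, 779, 850 and 538 units in the same order, 1.46-fold lower at day 7. Both ratios lie within 1 SD of the disagreement between probe sets. Vamp1 and Stx8, a syntaxin of late endosomes, lay above 428 units on later arrays only, at 774 and 607 units at day 10 and 429 and 623 with TNF.

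**Figure D2:**
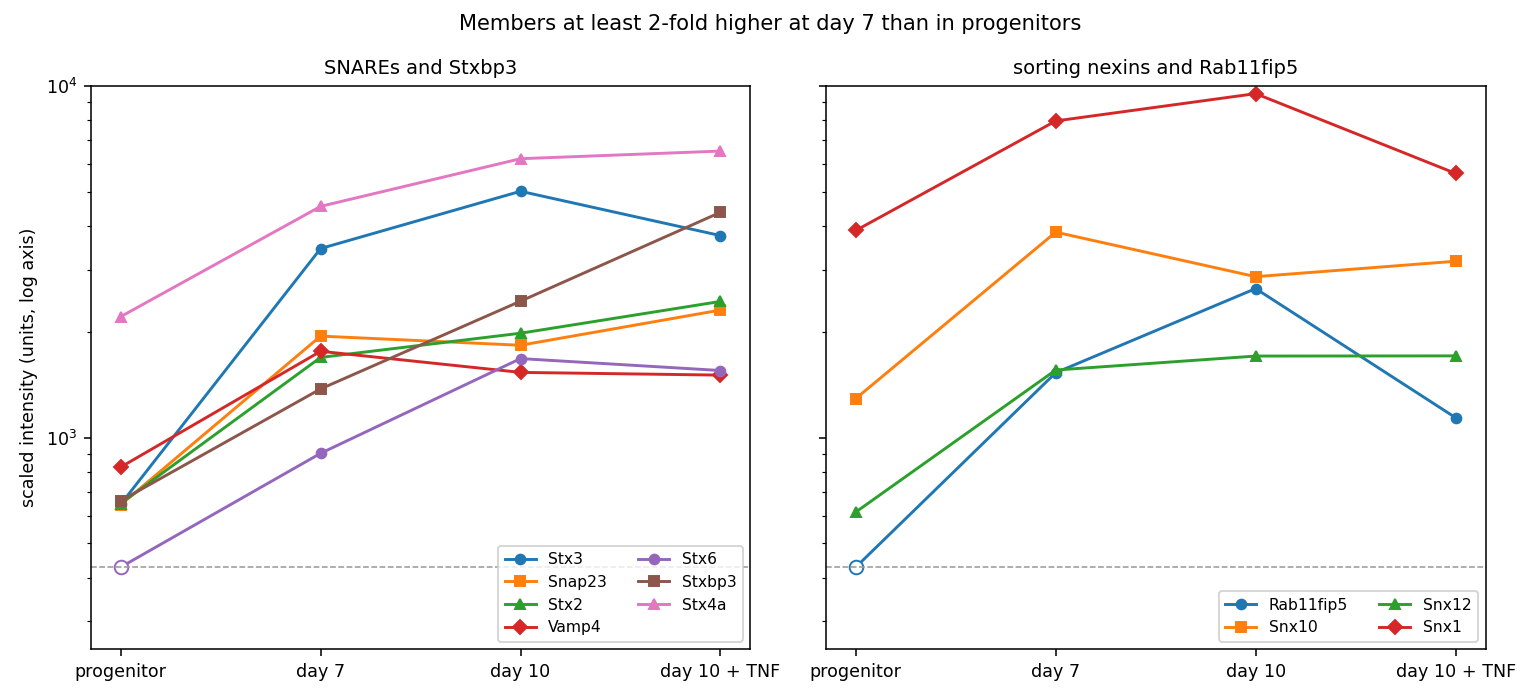
Scaled intensity (units, log axis) on the 4 arrays of the 11 members at least 2-fold higher at day 7 than in progenitors, with SNAREs and Stxbp3 on the left and sorting nexins and Rab11fip5 on the right. Open symbols lie at or under 428 units (dashed); lines join values of a gene, and Stxbp3 is higher at each stage than at the one before.

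Sorting nexins had a median log2 ratio of 0.64 at day 7, and 9 of 10 measured had a ratio above 0. Snx10, which acts on endosomes, had 1291 units in progenitors, 3838 at day 7, 2867 at day 10 and 3172 with TNF, 2.97-fold higher at day 7. Snx12 had 614, 1556, 1705 and 1707 units in the same order, 2.53-fold higher at day 7, but a second probe set with 1177, 1655, 1582 and 874 units gave a log2 ratio of 0.49 in place of 1.34. The 2 probe sets of Snx12 thus share a sign and not a size.

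Snx1, Snx2, Snx5 and Snx6 carry BAR domains, which bend endosomal tubules, and work with retromer. Snx1 had 3880, 7948, 9505 and 5638 units in progenitors, at day 7, at day 10 and with TNF, 2.05-fold higher at day 7. Snx5 had 599, 1183, 1848 and 1200 units, 1.97-fold higher at day 7, with a log2 ratio of 0.69 from a second probe set against 0.98. Snx2 had 5267, 7070, 7098 and 5198 units and Snx6 2727, 4138, 3429 and 3878 units, 1.34-fold and 1.52-fold higher at day 7. On their brightest probe sets Snx1, Snx5 and Snx6 were lowest in progenitors, and Snx2 was about equally low in progenitors and with TNF. The second Snx5 probe set had 815, 1313, 931 and 620 units in the same order, lowest with TNF. A second Snx2 probe set had 3190, 5447, 5475 and 4239 units, lowest in progenitors. Snx4, a BAR domain nexin that returns transferrin receptors to the surface, was 1.12-fold lower at day 7, with 4005, 3580, 4018 and 3398 units.

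Rab11fip5, an effector that binds Rab11 on recycling endosomes, had 155 units in progenitors, 1529 at day 7, 2652 at day 10 and 1139 with TNF. It was at least 3.57-fold higher at day 7 and at least 6.19-fold higher at day 10 than in progenitors. Rab3il1, an exchange factor for Rab GTPases, had 37, 690, 1253 and 748 units in the same order, at least 1.61-fold higher at day 7 and at least 2.93-fold at day 10. Both partner genes were under 428 units in progenitors and highest at day 10. Arl2bp, which binds Arl2, had 5421, 5088, 3554 and 2691 units. Arl14ep, whose product links MHC class II vesicles to the cytoskeleton in human dendritic cells, had 1909, 1878, 1907 and 1842 units on its brightest probe set. A second one read 665, 691, 436 and 368 units, lower at day 10 than in progenitors by a log2 ratio of -0.61.

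No Rab GTPase reached 2-fold at day 7, with log2 ratios from -0.55 to 0.99 over the brightest probe set of each. Their median was 0.28, against 0.37 for all members and -0.07 for all genes. Of 23 Rab GTPases 15 (65.2%) had a ratio above 0, against 46.6% of all genes. Rab12 had the highest ratio, at 756 units in progenitors, 1501 at day 7, 1707 at day 10 and 2959 with TNF. Its day 7 level was 1.99-fold above progenitors and its TNF level was the highest of the 4. Rab9, which returns receptors from late endosomes to the Golgi, had 2039, 3656, 1787 and 2838 units, 1.79-fold higher at day 7. Rab7, the GTPase of late endosomes and lysosomes, had 7824, 10634, 13365 and 9430 units, and a second probe set 5040, 8273, 8890 and 7930 units. Both Rab7 probe sets were lowest in progenitors and highest at day 10, with log2 ratios of 0.44 and 0.71 for day 7 over progenitor.

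**Figure D3:**
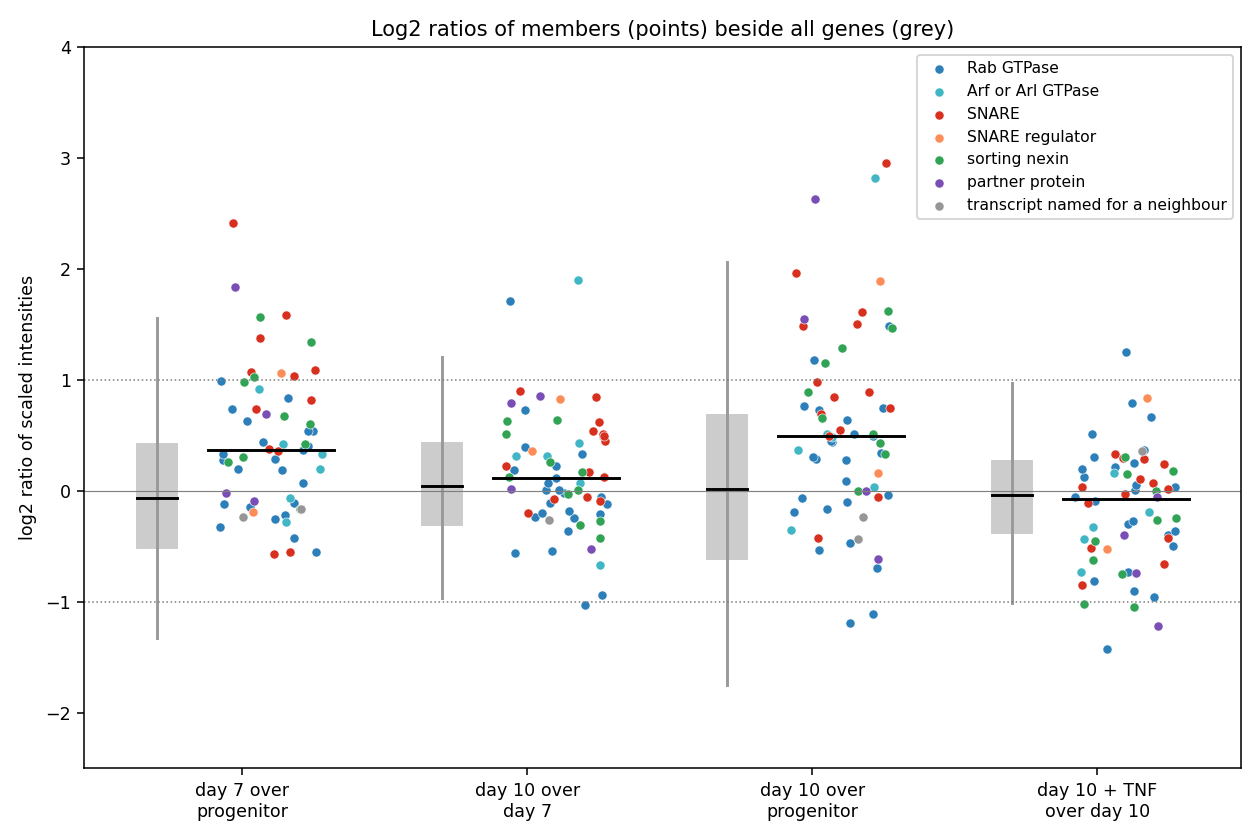
Log2 ratio of scaled intensities in 4 comparisons, with members as points coloured by role and a black line at their median. At the left of each, the grey box and bar give the middle 50% and 90% of all genes with the median as a black line; members have medians of 0.37, 0.12, 0.50 and -0.07.

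The second comparison sets day 10 against day 7. Few members differed 2-fold: 2 of 63 were higher and 1 was lower, against 7.26% higher and 4.65% lower of 4326 genes, and the median log2 ratio was 0.12, against 0.05 for all genes. The share of higher genes among all those called was 61.0%, or 49.7% after quantile normalization. Among members it was 2 higher and 1 lower, or 2 higher and 3 lower after quantile normalization. The spiked bacterial transcripts were brighter at day 10 than at day 7, with a median log2 ratio of 1.5 over the 11 probe sets. Their part in these ratios was not tested.

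Arf5, a GTPase of the Golgi, had 1342 units in progenitors, 2540 at day 7, 9498 at day 10 and 5721 with TNF. Day 10 was 3.74-fold above day 7, a log2 ratio of 1.90, or 1.74 after quantile normalization. Rab10, which drives delivery of vesicles to the surface, had 591, 508, 1663 and 2375 units in the same order, 3.27-fold higher at day 10 than at day 7. Rab10 was low on the progenitor and day 7 arrays and high on the day 10 and TNF arrays. Arf5 was already 1.89-fold higher at day 7 than in progenitors, and it was highest at day 10. A second Rab10 probe set lay under 428 units throughout. Rab10os, the transcript named for the opposite strand, had 609, 544, 453 and 580 units and did not share the Rab10 pattern.

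Rab9 was the member that was lower, 2.05-fold at 1787 units at day 10, against 3656 at day 7. Rab5c, one of 3 GTPases of early endosomes, had 5078, 4272, 2223 and 1191 units in progenitors, at day 7, at day 10 and with TNF. It was 1.92-fold lower at day 10 than at day 7 and 1.87-fold lower with TNF than at day 10, and each stage was below the one before. Its paralogs did not share this order: Rab5a had 2063, 2372, 1849 and 2382 units, and Rab5b 426, 567, 520 and 488 units. The difference between paralogs was not tested.

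Arf1, which recruits the COPI coat to the Golgi, had 28787, 23723, 29522 and 23679 units in progenitors, at day 7, at day 10 and with TNF. Its log2 ratio of 0.32 between day 10 and day 7 turned to -1.25 after quantile normalization, and its 0.04 between day 10 and progenitor turned to -1.10. The sign for this gene therefore depends on the scaling. Arf3, a close relative at the Golgi, had 2179, 2923, 3071 and 3431 units on its brightest probe set, while its other probe sets gave log2 ratios of 1.52 and -0.65 between day 10 and day 7. The 3 probe sets of Arf3 thus disagree.

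Set against progenitors, 15 of 63 members were at least 2-fold higher at day 10 and 2 were lower, against 17.3% higher and 14.8% lower of 4460 genes. The shares of the members were 23.8% and 3.17%, and their median log2 ratio was 0.50, against 0.02 for all genes. This comparison shares the progenitor array with the first and the day 10 array with the second. The spiked bacterial transcripts had a median log2 ratio of 1.13 between these arrays, and their part in the ratios was not tested. Stx3 was 7.77-fold higher, Arf5 7.08-fold, Stxbp3 3.70-fold, Snx5 3.08-fold, Stx2 3.05-fold, Snap23 2.84-fold, Rab10 2.82-fold and Stx4a 2.81-fold. Snx12 was 2.78-fold higher, Snx1 2.45-fold, Rab12 2.26-fold and Snx10 2.22-fold. The second probe sets of Snx12 and Snx5 gave log2 ratios of 0.43 and 0.19 in place of 1.47 and 1.62, so these sizes are uncertain.

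The 2 lower members were Rab GTPases. Rab5c was 2.28-fold lower at day 10 than in progenitors. Rab28 had 1323, 906, 614 and 510 units in progenitors, at day 7, at day 10 and with TNF, 2.16-fold lower at day 10. It lay lower at each stage than at the one before. Rab6a, a GTPase of the Golgi, was 1.61-fold lower at 2613 units at day 10, against 4201 in progenitors, with a log2 ratio of 0.03 from its second probe set.

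The Rab genes of basic traffic described next differed less than 2-fold from progenitors at day 7 and day 10 on their brightest probe sets. Rab1a, for transport out of the endoplasmic reticulum, had 2308, 2628, 2218 and 1803 units in progenitors, at day 7, at day 10 and with TNF, while Rab2a had 1728, 1818, 1610 and 1559. Rab14, on endosomes and the trans-Golgi network, had 7603, 9815, 9653 and 11473 units on its brightest probe set. A dimmer Rab14 probe set had 505, 1258, 825 and 1262 units, with a log2 ratio of 1.32 for day 7 over progenitor against 0.37, and the dimmest had 426, 491, 554 and 643 units, so for this gene the readings differ. Rab8a, which works in delivery to the surface, had 5304, 6662, 7251 and 8318 units, and the recycling GTPases Rab11a and Rab11b had 2559, 3961, 3984 and 4645 units and 3382, 3116, 4125 and 3131 units. Rab18, Rab21, Rab24 and Rab33b differed by less than 1.5-fold between progenitor and each of the day 7 and day 10 arrays.

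The last comparison asks how cells given TNF for 16 hours differ from day 10 cells without it. Of 62 members, 1 was at least 2-fold higher and 4 were lower, 1.61% and 6.45%, against 4.71% higher and 5.15% lower of 4308 genes. The median log2 ratio was -0.07, against -0.04 for all genes. As a family these genes were thus near the level of the untreated array. On the same pair of arrays, granulocyte markers summed to 17398 units with TNF, against 142969 at day 10, and 5 of 10, against 8 of 10, lay above 428 units. The spiked transcripts had a median log2 ratio of -0.50. The part of either in the ratios below was not tested.

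Rab8b, a GTPase of delivery to the surface, was the higher gene. It had 406, 715, 720 and 1712 units in progenitors, at day 7, at day 10 and with TNF, which sets the TNF array apart from the other 3. The ratio was 2.38-fold, a log2 ratio of 1.25 that was also 1.25 after quantile normalization. Its paralog Rab8a was 1.15-fold higher with TNF. Stxbp3 (1.79-fold), Rab12 (1.73-fold) and Rab9 (1.59-fold) came next and did not reach 2-fold.

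Rab3d, a GTPase of secretory granules, was lower with TNF. It had 2484, 3025, 3544 and 1329 units in progenitors, at day 7, at day 10 and with TNF, 2.67-fold lower with TNF than at day 10, and the TNF level was the lowest of the 4. Rab11fip5 was 2.33-fold lower with TNF, Snx17 2.07-fold and Snx14 2.03-fold. Snx17, which returns integrins and lipoprotein receptors to the surface, had 2836, 3389, 5247 and 2535 units, and Snx14, a nexin of the endoplasmic reticulum, had 822, 1319, 1295 and 638 units in the same order. After quantile normalization the Snx17 log2 ratio was -0.98, just short of 2-fold, against -1.05.

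More Rab genes were close to this limit. Rab31, on the trans-Golgi network and endosomes, had 2542, 2042, 1761 and 907 units in progenitors, at day 7, at day 10 and with TNF, 1.94-fold lower with TNF. Rab4b, of the recycling pathway, had 2249, 2076, 2181 and 1246 units, level until day 10 and 1.75-fold lower with TNF. Snx1 and Arf5 were 1.69-fold and 1.66-fold lower with TNF, and Rab7 1.42-fold lower, with a log2 ratio of -0.16 from its second probe set against -0.50. The surface SNAREs that were higher at day 7 kept levels near those of day 10: the TNF ratio was 1.26-fold higher for Snap23, 1.23-fold higher for Stx2, 1.05-fold higher for Stx4a and 1.34-fold lower for Stx3.

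**Figure D4:**
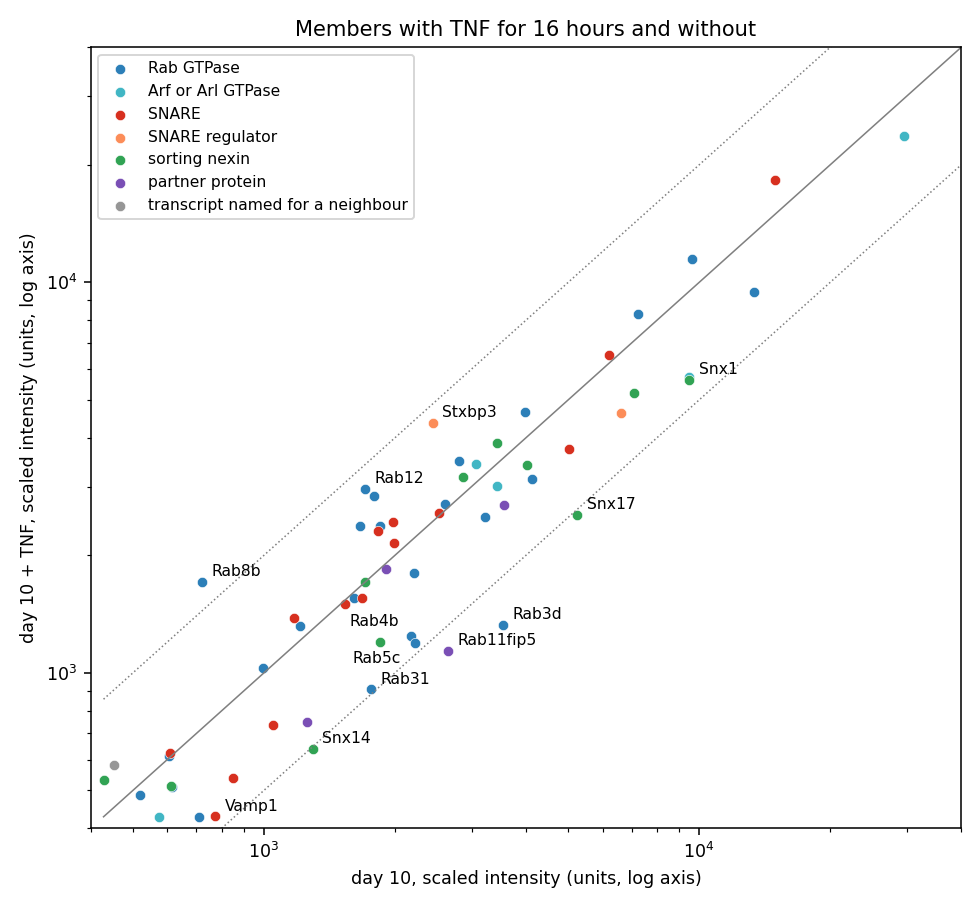
Scaled intensity (units, log axes) of the 62 members that exceed 428 units with or without TNF, day 10 with TNF against day 10 without, coloured by role. The solid line marks equal levels and the dotted lines 2-fold; Rab8b lies above the upper line and Rab3d, Rab11fip5, Snx17 and Snx14 at or below the lower one.

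Other genes of vesicle traffic were read from 5 lists. Between day 7 and progenitor, coats and adaptors had 0 of 33 members higher and 3 lower with a median log2 ratio of -0.10, and retromer, ESCRT and tether genes had 0 of 22 higher and 0 lower (0.27). Further SNAREs and their disassembly factors had 0 of 11 higher and 0 lower (0.24), Rab regulators 1 of 9 higher (0.40) and Arf regulators 1 of 13 (-0.28), with 0 lower in either. Over all genes 10.5% were higher and 9.72% lower, so the 3 lower coat genes are near that share. Between day 10 and day 7 the higher counts were 1 of 35 for coats, 0 of 22 for retromer and tethers, 0 of 11 for the further SNAREs, 1 of 11 for Rab regulators and 2 of 13 for Arf regulators, with 0 lower in each, against 7.26% higher and 4.65% lower of all genes.

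Between day 10 and progenitor, Rab regulators had 4 of 11 members higher and 0 lower, against 17.3% and 14.8% of all genes. Coats had 1 of 35 higher and 3 lower, retromer and tethers 3 of 21 higher, the further SNAREs 2 of 11 and Arf regulators 2 of 13, with 0 lower in the last 3. With TNF over day 10 the counts were 1 of 12 higher for Rab regulators, 1 higher and 2 lower of 14 for Arf regulators, 1 of 20 higher for retromer and tethers, and 0 either way of 34 coats and of 10 further SNAREs. Over all genes 4.71% were higher and 5.15% lower with TNF. No difference between these lists and the members was tested.

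Named genes of those lists included both directions. Sec13, of the COPII coat, had 8179 units in progenitors, 3964 at day 7, 3748 at day 10 and 3298 with TNF, 2.06-fold lower at day 7. Cyth3, an exchange factor for Arf proteins, had 124, 1753, 3245 and 2557 units, at least 4.10-fold higher at day 7. Eea1, the Rab5 effector that tethers early endosomes, had 459, 1280, 1184 and 1779 units, 2.79-fold higher at day 7. With TNF, Rabgap1l, a Rab GTPase-activating protein, had 1688 units, against 37 at day 10, at least 3.94-fold higher. Gga1, an adaptor that binds Arf proteins, was at 280 units with TNF, against 1674 at day 10, at least 3.91-fold lower.

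With the lower floor of 105 units, where noise weighs more, more members could be counted. At day 7 over progenitor 14 of 69 were higher and 3 lower, against 13.4% and 11.9% of all genes. At day 10 over day 7 it was 9 and 3 of 76, against 11.2% and 8.44%, and at day 10 over progenitor 22 and 5 of 76, against 20.4% and 16.8%. With TNF over day 10 it was 4 and 6 of 76, against 8.84% and 8.76%. The members leaned to the higher side at day 7 under both floors.

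How far 2 probe sets of a gene agree was read from members with a second probe set above 428 units. This says nothing of the spread between arrays or cultures. There were 10 such members between day 7 and progenitor, 7 of them with the same sign in both, and 10 between TNF and day 10, 8 of them with the same sign. Most of the genes that the results turn on have no second reading: Snap23, Stx2, Stx4a, Stx6, Stxbp3, Arf5, Rab8b, Rab3d and Rab5c are each read by 1 probe set. Over all genes with 2 such probe sets, 90.3% of the differences between day 7 and progenitor and 93.2% of those between TNF and day 10 were under 1 on the log2 scale.

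**Figure D5:**
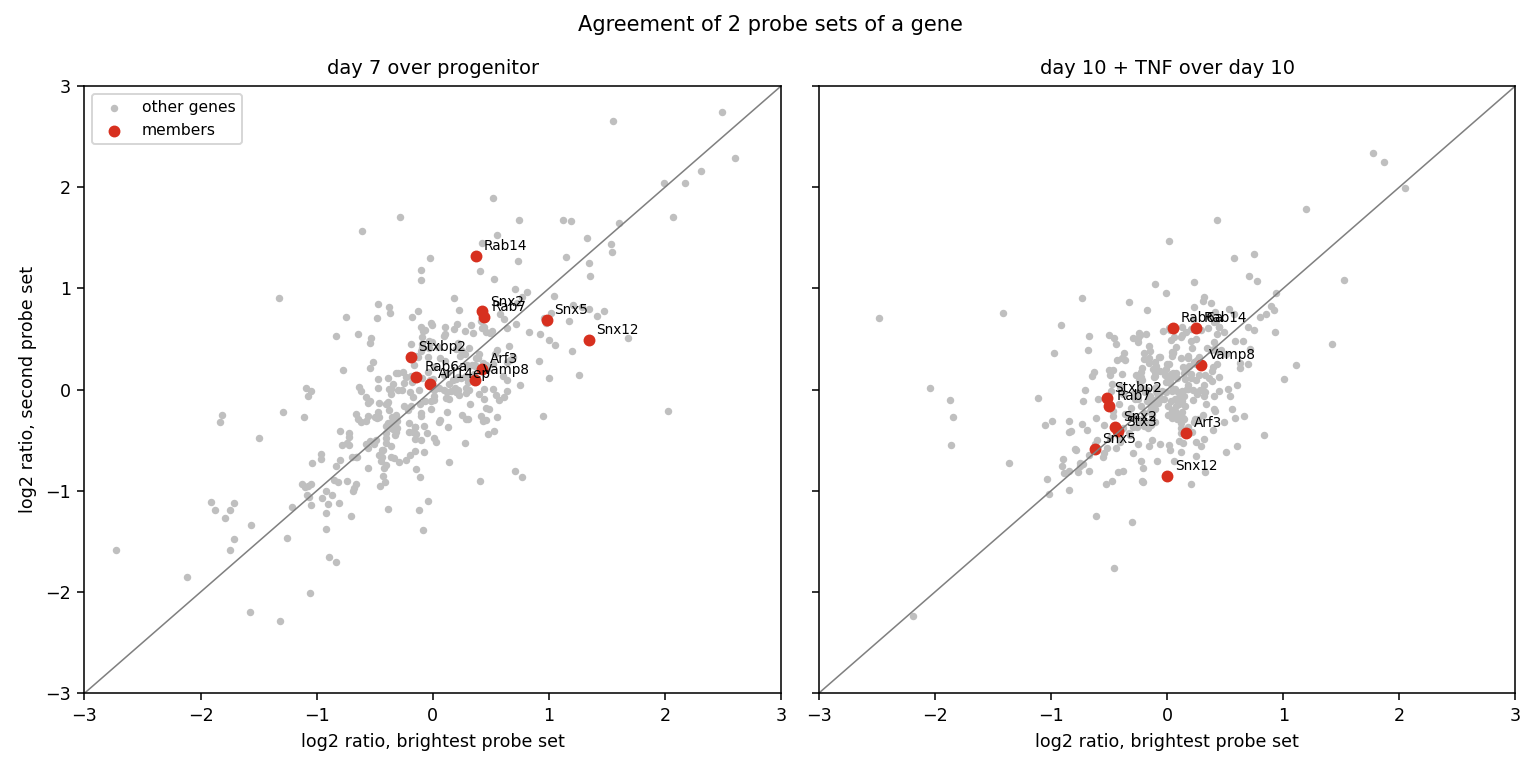
Log2 ratio of the second probe set against that of the brightest probe set of each gene, for day 7 over progenitor (left) and TNF over day 10 (right), with members in red and other genes in grey. Points on the diagonal agree; Snx12 lies off it in both panels, and the axes stop at 3 in either direction.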

How the data were processed

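The authors deposited 1 intensity per probe set and array on a linear scale for 12654 probe sets; per the labels' protocols, RNA preparation, labelling and hybridisation followed a published method. No source used here names the background method, scaling or software. On each array 22.8% to 24.3% of the deposited intensity values were below 0. Probe sets with 1 gene symbol (10298) were used, updated through the Entrez number for 10279. Each gene was represented by its brightest probe set, by mean intensity. Arrays were scaled to a common 75th percentile (factors 0.962 to 1.05), raised to a floor of 428 units, the 60th percentile, and converted to log2. The counting was checked on simulated data. Members and lists were chosen with earlier results of these data known. All members could be named; of other lists, the 3 largest ratios past 2-fold in each direction. Alternatives were a floor at the 40th percentile (105 units), quantile normalization, unscaled values, a 3-fold rule, other probe set choices and the annotation's own symbols. Computation used Python 3.11.15, numpy 2.4.6 and pandas 2.3.3. Promoter sequences are from RefSeq, GRCm38.p6.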

Additional observations from a re-analysis of the deposited data

How the results depend on the processing

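No paired analysis was possible because each group has 1 array. The 3-fold rule gave fewer members: 3 higher at day 7 than in progenitors, 7 higher and 0 lower at day 10 than in progenitors, 0 lower for day 10 over day 7, and 0 higher and 0 lower with TNF. The share of all genes past 3-fold was not counted. Whether members exceed that share under the stricter rule therefore cannot be said. The floor at 105 units, which lets dim members count, gave 3 lower at day 7, 9 higher and 3 lower for day 10 over day 7, 5 lower at day 10 than in progenitors, and 4 higher with TNF. Quantile normalization gave 3 lower at day 10 than at day 7, with a median log2 ratio of 0.0, and the values as deposited gave 2 lower with a median of 0.0 there and a median of 0.39 for day 10 over progenitor; over all genes the median between day 10 and day 7 was 0.05 as scaled, -0.02 with quantile normalization and -0.07 as deposited. Median over all probe sets, leaving out shared or lower-quality probe sets, and the annotation's own symbols moved no count by over 1.5 times. Of 988 values of single members under alternatives, 21 moved by over 1 SD of the disagreement between probe sets and 0 of the members past 2-fold changed sign; 18 of the 21 came from the lower floor, the others being Stx3 and Arf1, whose values stand above. Signal over background limits every gene near 428 units, and 1 array a group limits all of it.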
